A study of Drosophila melanogaster with 6 samples.

Results

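udd and brat are 2 genes of the 17398 listed in the second of 2 RNA immunoprecipitation experiments on Drosophila melanogaster ovary. They were chosen because they held the most intron reads in the Lsd1 library of that experiment, 16579 and 6297. Their intron reads and their other values with Lsd1 are therefore given as a description, without a test. Sequenced RNA was recovered from ovary lysate with anti-Lsd1, with anti-Bre1 or with control IgG. All 6 libraries, 2 per antibody, came from wild-type Oregon-R females taken 12 hours after eclosion, about 200 per lysate, and each lysate was divided among the 3 antibodies. Polyadenylated RNA was not selected, so unspliced and nonpolyadenylated RNA could enter the libraries, and the kit does not mark strand.

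Lsd1 is a histone demethylase that acts on lysine 4 of histone H3, and Bre1 is the ubiquitin ligase of histone H2B. The protein of udd (under-developed) acts with TAF1B and TAF1C-like at ribosomal DNA promoters, where RNA polymerase I starts transcription, and is needed in female germline stem cells. brat (brain tumor) encodes an RNA-binding protein of the TRIM-NHL family that represses mRNAs such as hunchback together with Pumilio and Nanos, and in the ovary it acts in the daughters of germline stem cells as they differentiate. An intron read comes from a part of the gene model that mature mRNA lacks, so it can mark unspliced RNA, and it can also come from a repeated sequence that lies in an intron and elsewhere in the genome. The tables of experiment 2 give total and unique reads, and the difference between them is called reads that are not unique here. What counts as unique is not given in the sources available.

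The ovary identity of the lysates was visible in the germline and follicle cell markers. The 6 germline genes (vas, nos, osk, bam, otu, aub) summed to between 16.8 and 529 across the 6 libraries in the deposited unit, and the 4 follicle cell genes (tj, Yp1, Fas3, zfh1) to between 14.5 and 164. The fat body genes Lsp2 and Fbp1 never exceeded 0.112. The germline sum was lowest in the Bre1 library of experiment 1 (16.8) and the Lsd1 library of experiment 2 (19.4), where bam was listed at 0. Outside ribosomal RNA, the IgG, Lsd1 and Bre1 libraries of experiment 2 held 9497498, 1663819 and 7589253 gene reads. Intron reads were 757936, 44214 and 141401 of these.

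The intron of udd existed in only 1 of the gene models used. In the table of experiment 2, udd (FBgn0033261) spanned chromosome 2R from 8106385 to 8113949 in build dm6, 7565 bases with 3 exons, 1352 exon bases, 6213 intron bases and 2 transcripts. In the table of experiment 1 and in RefSeq (Release 6 plus ISO1 MT) the same gene ended at 8107373 and had 1 transcript of 989 bases, equal to its span, which leaves no room for an intron. The longer model added 6576 bases beyond that end, 86.9% of its length, of which 363 were exon. No listed gene overlapped this stretch. Cul4 ended 66 bases before udd and Asap began 336 bases after the longer model.

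brat (FBgn0010300) had the same limits in all 3 models, chromosome 2L from 19133816 to 19179758, a span of 45943 bases. Its 11 exons covered 12788 bases and its introns 33155, with 5 transcripts. Of the genes listed in experiment 2, 3 overlapped brat, all on the opposite strand. CR44977, a noncoding RNA gene of 1432 bases, lay wholly inside it. l(2)37Cg, which RefSeq names Polr1D and which encodes a subunit of RNA polymerase I, shared 1418 bases with it, and CG17568 shared 10 bases. These neighbours held few reads with Lsd1. CR44977 had 4 gene reads with IgG, 0 with Lsd1 and 3 with Bre1. l(2)37Cg had 257, 9 and 182 in the same order, and CG17568 had 241, 8 and 113. All of these were unique. Because strand was not marked, reads of overlapping genes cannot be told apart.

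With Lsd1, udd held 16579 intron reads, against 758 with IgG and 20 with Bre1. As reads per 1000000 gene reads outside ribosomal RNA (RPM) these were 9964, 79.8 and 2.64, the highest with Lsd1 and the lowest with Bre1. The Lsd1 value was 125-fold the IgG value (exact 95% interval 116 to 134), and the IgG value was 30.3-fold the Bre1 value (19.5 to 49.9). The size depended on the denominator: on the log2 scale the Lsd1 ratio was 6.96 outside ribosomal RNA and 5.03 over all gene reads, and the Bre1 ratio was -4.92 and -5.81. Such intervals cover counting error only, since each antibody has 1 library with intron counts and copies made by amplification are not independent molecules. In udd, introns took 58.1% of the gene's reads with IgG, 94.8% with Lsd1 and 15.4% with Bre1 (exact 95% intervals 55.4 to 60.8%, 94.5 to 95.1% and 9.66 to 22.8%). Of all intron reads of a library, udd took 0.10% with IgG, 37.5% with Lsd1 and 0.0141% with Bre1.

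For brat, 6543 intron reads were counted with IgG, 6297 with Lsd1 and 402 with Bre1. These were 689, 3785 and 53.0 RPM. The order of the antibodies was that of udd, with a smaller distance between Lsd1 and IgG. The Lsd1 value was 5.49-fold the IgG value (5.31 to 5.69) and the IgG value was 13.0-fold the Bre1 value (11.8 to 14.4). The fold with Lsd1 depended on the denominator, since ribosomal RNA made up most gene reads of that library. Over all gene reads it was 0.52 on the log2 scale, against 2.46 outside ribosomal RNA. Introns took 44.3% of brat reads with IgG, 95.3% with Lsd1 and 10.8% with Bre1 (43.5 to 45.1%, 94.8 to 95.8% and 9.84 to 11.9%). Of a library's intron reads, brat took 0.863%, 14.2% and 0.284%.

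Nearly all of these Lsd1 reads were not unique. In the udd intron, 41 reads with IgG, 122 with Lsd1 and 3 with Bre1 were unique, so 94.6%, 99.3% and 85.0% were not (exact 95% intervals 92.7 to 96.1%, 99.1 to 99.4% and 62.1 to 96.8%). In the brat introns, 1693 reads with IgG were unique, 1 of 6297 with Lsd1 and 94 with Bre1, so 74.1%, 99.98% and 76.6% were not (73.0 to 75.2%, 99.9 to 100%, 72.2 to 80.7%). The share of reads that are not unique was thus high for udd with every antibody, and for brat it was higher with Lsd1 than with IgG or Bre1. Over the whole libraries, 9.40% of intron reads with IgG, 69.6% with Lsd1 and 9.93% with Bre1 were not unique, and without the 2 genes these shares were 8.75%, 37.6% and 9.73%. The 2 genes held 73.9% of the intron reads of the Lsd1 library that were not unique, 7.81% with IgG and 2.32% with Bre1.

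Counted on unique reads alone, the 2 genes parted. The unique intron reads of udd, in RPM over unique gene reads, were 4.53 (IgG), 104 (Lsd1) and 0.411 (Bre1). Lsd1 remained above IgG, by 22.9-fold (15.9 to 33.5), and the IgG value was 11-fold the Bre1 value (3.52 to 55.7, on 3 Bre1 reads). For brat the unique values were 187, 0.850 and 12.9, so Lsd1 was now the lowest and the IgG value was 220-fold the Lsd1 value (39.4 to 8698, on 1 Lsd1 read). Between IgG and Bre1 the brat fold was 14.5 (11.8 to 18.1), close to that of all reads.

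**Figure D1:**
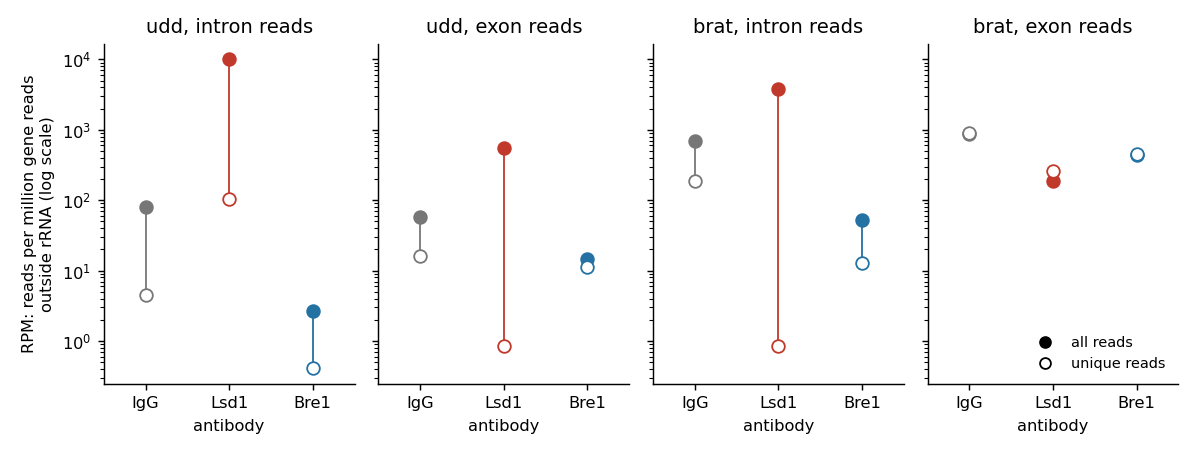
Reads of udd and brat in introns and exons in the 3 libraries of experiment 2, in RPM on a log scale. Filled points are all reads, open points are unique reads in RPM over unique gene reads, and a line joins both values of a library; for brat introns the Lsd1 points lie at 3785 and 0.850, the widest gap in the brat panels.

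The exon reads of the 2 genes differed in kind. The udd exons held 547 reads with IgG, 911 with Lsd1 and 110 with Bre1, of which 148, 1 and 83 were unique. In RPM, all exon reads of udd were 9.51-fold higher with Lsd1 than with IgG (8.54 to 10.6), whereas for unique exon reads IgG was 19.2-fold the Lsd1 value (3.4 to 765, on 1 Lsd1 read). The brat exons held 8234, 309 and 3313 reads, and all but 2 with IgG were unique. In RPM, the IgG value of brat exons was 4.67-fold the Lsd1 value (4.17 to 5.25) and 1.99-fold the Bre1 value (1.91 to 2.07). Within brat, in RPM, the exon reads with Lsd1 were therefore lower than with IgG while all intron reads were higher. The size of the exon folds depended on the denominator. In the deposited levels per length (RPKM), the udd value with Lsd1 was 1.70-fold the IgG value. For brat the IgG value was 26.1-fold the Lsd1 value and 3.83-fold the Bre1 value.

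Reads across exon junctions, which mark spliced RNA, were counted for brat and not for udd. brat had 473 with IgG (5.74% of its exon reads, exact 95% interval 5.25 to 6.27%) and 110 with Bre1 (3.32%, 2.74 to 3.99%). With Lsd1 it had 0 of 309 exon reads, which allows a share of up to 0.971% (3 counts of the total). In that library, 108 of the 607 protein-coding genes (17.8%) with more than 1 exon and 200 to 500 exon reads also had no junction read, and the median share over the 607 was 6.11%. udd had 0 junction reads of 547, 911 and 110 exon reads, which allows up to 0.548%, 0.329% and 2.73% by the same rule. The deposited tables list 4 of the 5 brat transcripts as detected with IgG, 0 with Lsd1 and 3 with Bre1. Of the 2 udd transcripts they list 1, 0 and 0.

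Among all genes outside ribosomal RNA, the place of the 2 genes by intron reads moved with the antibody. udd ranked 252 with IgG, 1 with Lsd1 and 1375 with Bre1, and brat ranked 10, 2 and 27. By reads that are not unique, brat ranked 1, 2 and 5 and udd 24, 1 and 160, so brat was already first with IgG. By unique reads, udd ranked 1340, 17 and 3327, and brat 86, 774 and 288. Of 1168 genes with at least 100 intron reads over the 3 libraries, 38 (3.25%) were at least 2-fold higher with Lsd1 than with IgG in RPM, and 1058 (90.6%) at least 2-fold lower. udd and brat, chosen on these reads, ranked 2 and 20 of the 1168 by the Lsd1 ratio. With Bre1, 828 (70.9%) of the same genes were at least 2-fold lower and 8 (0.685%) at least 2-fold higher. Both udd and brat were among these 828 lower genes, but 2 genes are too few to set against that share. With IgG alone 937 genes reached 100 intron reads, so the limit favours ratios below 0 for both antibodies. By the Bre1 ratio they ranked 1160 and 1059 of the 1168 at -4.85 and -3.70 on the log2 scale with 1 read added, against a median of -2.07.

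**Figure D2:**
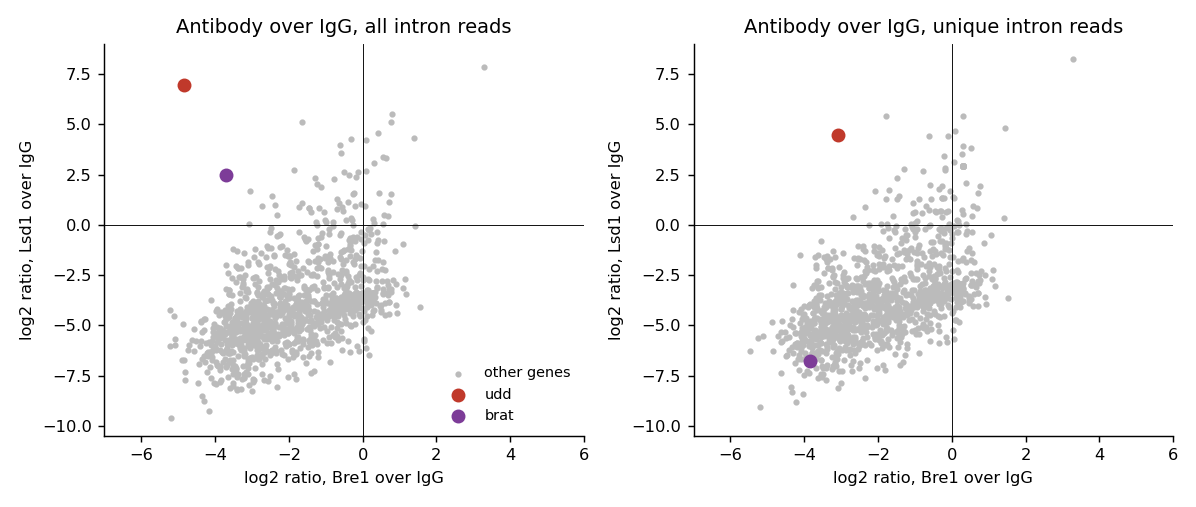
Log2 ratios of intron RPM over IgG, Bre1 on the horizontal and Lsd1 on the vertical axis, for the 1168 genes with at least 100 intron reads over the 3 libraries of experiment 2, with 1 read added to each count. With all reads (left panel) udd and brat lie above 0 for Lsd1 and below 0 for Bre1; with unique reads (right panel) brat lies at -6.78 for Lsd1.

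Other genes with many intron reads with Lsd1 ranged from nearly all unique to nearly none. CG34347 came next after udd and brat with 1503, of which 10 were unique; with IgG 2034 of its 2305 intron reads were unique. Myo81F, a myosin gene, had 992, and 983 of them were unique. The Y-linked dynein heavy chain gene kl-5 had 860 (783 unique), dpr2, a cell surface protein of the immunoglobulin family, had 764 (762 unique), and the Y-linked Ppr-Y had 727 (702 unique). Myo81F, kl-5, dpr2 and Ppr-Y each had 0 exon reads with Lsd1, and all lysates were of females. Whether reads listed as unique came from the named gene was not tested. In all, 38 genes had at least 100 intron reads with Lsd1, with counts of 101 just inside this limit and 99 just outside. In 16 of the 38 (42.1%) at least 90% of the reads were not unique, against 40 of 937 genes (4.27%) with IgG and 8 of 307 (2.61%) with Bre1 at the same limit. The 14 of these 16 other than udd and brat held 101 to 1503 reads each. Their log2 ratios over IgG ran from -1.93 to 5.51 with a median of 1.78. The limits on reads and on uniqueness favour high ratios here, so nothing is read from them.

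By the ratio of intron reads over IgG, with 1 read added to each count, udd came second of the 38 genes at 6.96 on the log2 scale and brat came 17th at 2.46. dpr2 was highest at 7.84, and its ratio on unique reads was 8.27. ph-p, a Polycomb group gene, stood at 5.51 on 119 Lsd1 reads, none unique. sls, which encodes titin-like muscle proteins, stood at 5.11 on 442 reads, none unique, and kl-5 also at 5.11. The genes nearest to udd in ratio thus included ones read uniquely and ones that were not.

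**Figure D3:**
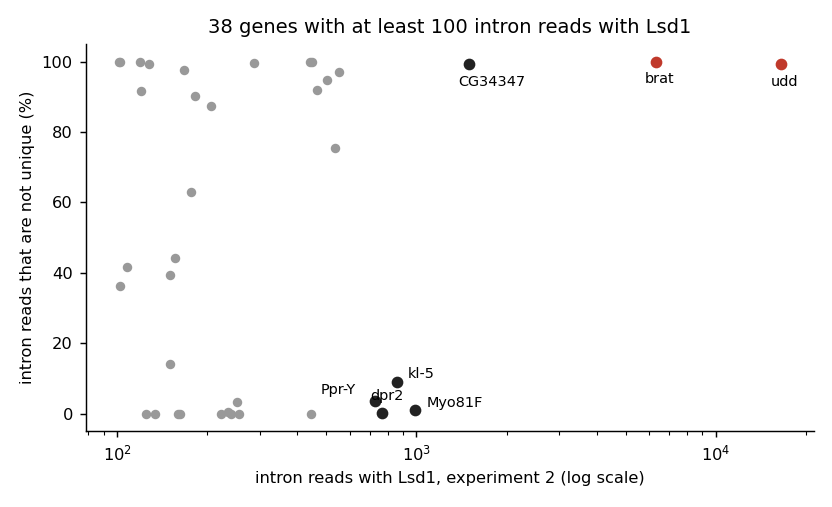
Percentage of intron reads that are not unique against the number of intron reads with Lsd1 (log scale), 1 point for each of the 38 genes with at least 100 such reads in experiment 2. udd and brat, in red, lie at the far right near 100%; of the 5 genes with the next most reads, CG34347 lies near 100% and the other 4 under 10%.

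Levels on the exons could be compared over both experiments, although each was quantified in its own way. Experiment 1 gives FPKM per transcript with confidence limits and experiment 2 gives RPKM per gene, both per length. In experiment 1 udd had an FPKM of 1.78 with IgG (deposited limits 0.974 to 2.59) and 4.53 with Lsd1 (3.17 to 5.90). The Bre1 value was 0.0437 (0 to 0.204). Its RPKM in experiment 2 was 8.35, 14.2 and 1.09. In both experiments udd was highest with Lsd1 and lowest with Bre1. The deposited limits of experiment 1, without scaling between libraries, did not overlap. The udd models differed, with 989 bases in experiment 1 and 1352 exon bases in experiment 2, so the values cover unlike sequence. In experiment 2 the order with Lsd1 rested on reads that are not unique, since the RPKM on unique exon reads was 2.26 with IgG, 0.0156 with Lsd1 and 0.822 with Bre1.

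For IgG, Lsd1 and Bre1, brat summed to an FPKM of 7.51, 14.0 and 0.951 in experiment 1 and had an RPKM of 13.3, 0.508 and 3.47 in experiment 2. Lsd1 was the highest of the 3 in experiment 1 and the lowest in experiment 2, while Bre1 was below IgG in both. Marker sums, as deposited and without scaling, went the same way. The germline sum went from 166 with IgG to 282 with Lsd1 in experiment 1 and from 529 to 19.4 in experiment 2. In the 529, osk alone held 358.6. The follicle cell sum went from 153 to 164 and from 91.0 to 67.0. The muscle sheath sum (Mhc, Act57B) went from 83.3 to 84.9 and from 39.9 to 16.5, with Mhc going the other way in both. Over all genes tested, the scaled medians with Lsd1 were 0.03 and -0.84. The direction was thus not particular to the germline markers. With Bre1 the germline sum was 16.8 in experiment 1 and 171 in experiment 2, and the follicle cell sum 14.5 and 84.3, all below IgG as brat was. The part of these markers in the brat values was not tested. Between the lysates of the 2 experiments, fewer cells of a type and less RNA per cell cannot be told apart, whereas the 3 antibodies of an experiment share a lysate.

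In experiment 1, 2 transcripts carried nearly all brat FPKM with IgG. FBtr0081159 was at 3.96 with IgG (3.39 to 4.53), 8.80 with Lsd1 (7.93 to 9.67) and 0 with Bre1. FBtr0081158 was at 3.34 (2.77 to 3.91), 4.87 (4.12 to 5.62) and 0.951 (0.638 to 1.26). With Lsd1 both deposited values lay above their IgG limits, with 1 library per antibody and no scaling between libraries. The factors that divide the levels in scaling were 1.48 for IgG and 1.85 for Lsd1. Scaling would thus bring the Lsd1 values closer to those of IgG. With Bre1, FBtr0081158 was the only brat transcript above 0. FBtr0081160 stayed at or below 0.287, and FBtr0336627 and FBtr0344846 were listed at 0 or near it with all 3 antibodies.

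**Figure D4:**
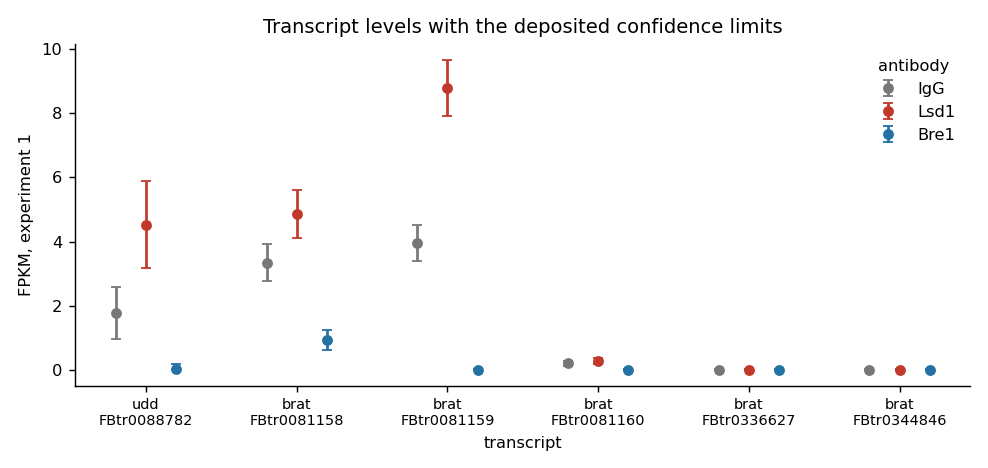
FPKM of the udd transcript and the 5 brat transcripts in the 3 libraries of experiment 1; points are the deposited values and bars the deposited confidence limits. The Lsd1 points of udd, FBtr0081158 and FBtr0081159, at 4.53, 4.87 and 8.80, lie above the IgG limits without scaling between libraries.

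The comparison of Bre1 with IgG asks which RNAs were recovered with this antibody beyond the control, and was tested for all 6687 genes with a level of at least 1 in at least 2 libraries. Levels were scaled between libraries and fitted as log2(level + 1) with limma, with the experiment as a block. udd stood at 1.14, 0.16, 2.39 and 0.90 on this scale in IgG and Bre1 of experiment 1 and IgG and Bre1 of experiment 2. Bre1 was the lower value in both experiments, which used unlike udd models. The fitted change was -1.23 ± 0.73 (SE, 2 libraries per antibody), with limma's adjusted p at 1.00. With unique exon reads in experiment 2, the udd ratio there shrank from -1.48 to -0.37. The fitted udd change in that setting was -0.68, against a median of -0.32 over all genes. brat stood at 2.61, 1.82, 2.95 and 1.91, again lower with Bre1 in both, with a change of -0.91 ± 0.74 and an adjusted p of 1.00 by limma. Neither difference passed the threshold of 0.05. Of the 6687 genes, 2 (0.0299%) passed it as lower and 0 (0%) as higher with Bre1, 260 had an unadjusted p under 0.05 by limma, and the median change of all genes was -0.33. The p-values rest on how far differences between antibodies varied between the 2 experiments, over all 6 libraries, those with Lsd1 included. The general difference between the lysates is taken out by the block. The estimate of spread was drawn mostly from all genes together, and the experiments were also quantified in different ways.

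With Lsd1, the scaled udd level was 1.79 in experiment 1 and 5.30 in experiment 2, which is 0.64 and 2.91 above IgG. The brat level was 3.09 and 1.25, which is 0.49 above and 1.70 below IgG. These sizes depended on scaling, whose factors in experiment 2 were 1.98 for IgG and 0.370 for Lsd1. With values as deposited, the ratios in experiments 1 and 2 were 0.99 and 0.70 for udd and 0.81 and -3.24 for brat. For udd, measured on unlike gene models, the experiments had the same sign, and for brat opposite signs. With unique exon reads in experiment 2, the udd value there became -1.03, so the signs were opposite for udd too. In this comparison 1 gene (0.015%) passed limma's threshold as higher and 1 (0.015%) as lower.

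**Figure D5:**
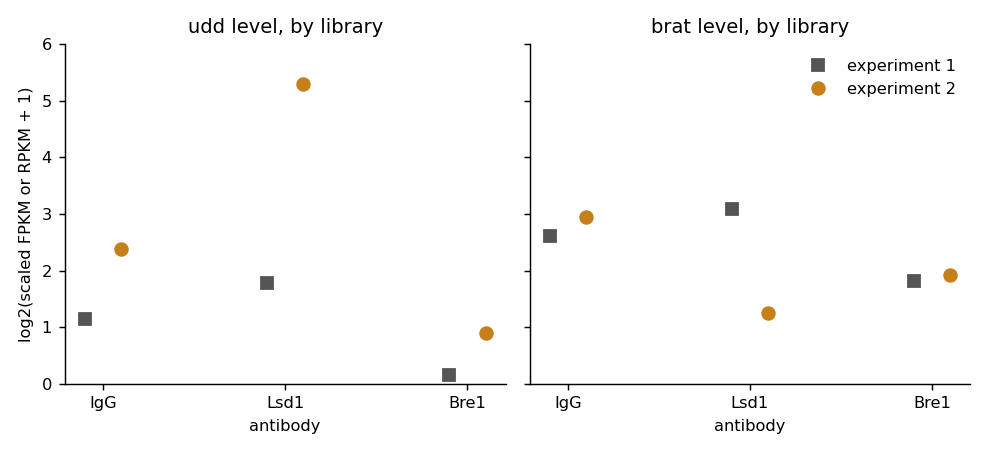
Scaled levels of udd (left) and brat (right) as log2(FPKM or RPKM + 1), with 1 point per library; squares are experiment 1 and circles experiment 2. With Bre1 both genes lie below IgG in both experiments; with Lsd1 brat lies at 3.09 in experiment 1 and 1.25 in experiment 2.

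The genes that act with udd held few intron reads. RNA polymerase I and its initiation factors were represented by 11 genes including udd, all of them tested with Bre1, and none passed limma's threshold. The 10 others, among them TAF1B, TAF1C-like, the initiation factor gene Tif-IA and the large subunit gene RpI1, together held 132, 16 and 96 intron reads for IgG, Lsd1 and Bre1, of which 1, 0 and 0 were not unique. Tif-IA had 86 of the IgG reads and 8 of the Lsd1 reads. l(2)37Cg, which overlaps brat, had 11 and 8, and without strand these cannot be told apart from reads of brat. The median change of the 10 with Bre1 was -0.81, against -0.33 over all genes tested. It was -1.24 in experiment 1, against -0.40 over all genes, and -0.23 in experiment 2, against -0.22. With Lsd1 the median was -0.10 in experiment 1 and -2.10 in experiment 2, against 0.03 and -0.84 over all genes. An unadjusted p under 0.05 by limma was reached with Bre1 by 2 of the 10 (Tif-IA and CG13773), beside 260 of all 6687 genes.

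Of the 17 genes in the list of Brat partners and relatives, 15 were tested with Bre1 and none passed limma's threshold. It holds pum and nos, the Brat relatives mei-P26 and wech, the cap-binding repressor gene eIF4EHP, and CCR4-NOT deadenylase genes. The 14 tested others had a median change of -0.30 with Bre1, 0.09 in experiment 1 and -0.50 in experiment 2. With Lsd1 their medians were 0.35 and -1.30. The signs of the 2 experiments were thus opposite for both antibodies. Over all genes tested the medians were -0.40 and -0.22 with Bre1. With Lsd1 they were 0.03 and -0.84, so opposite signs with Lsd1 were not particular to this list. An unadjusted p under 0.05 by limma was reached with Bre1 by 1 of the 14 (nos). pum, with the most intron reads of the list beside brat, had 7167 with IgG, 11 with Lsd1 and 473 with Bre1, and 7164 of the IgG reads were unique. eIF4EHP had 2631, 1 and 95, and the deadenylase gene twin had 804, 1 and 97. All 3 were lower with Lsd1 than with IgG, as were 90.6% of the 1168 genes by at least 2-fold.

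Of 8 genes described as targets of Brat or Pumilio, 7 were tested with Bre1 and none passed limma's threshold, with 0 at an unadjusted p under 0.05. Their median change with Bre1 was -0.36, 0.11 in experiment 1 and -0.38 in experiment 2. With Lsd1 the medians were 0.26 and -0.63, again of opposite sign, as were those over all genes, 0.03 and -0.84. hb (hunchback), the best known of them, had, for IgG, Lsd1 and Bre1, an FPKM of 1.95, 3.28 and 0.150 in experiment 1 and an RPKM of 6.74, 0.686 and 1.84 in experiment 2. Lsd1 was the highest in experiment 1 and the lowest in experiment 2. The same was seen for brat and for the germline, follicle cell and muscle sheath marker sums. Myc, a growth regulator, had 3244 intron reads with IgG, 1 with Lsd1 and 262 with Bre1, and none of them was unique. Of its exon reads, 656 of 23178 were unique with IgG and 1 of 234 with Lsd1. Myc thus differed from brat, whose exon reads were nearly all unique, and its intron reads were low with Lsd1.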

How the data were processed

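The authors deposited transcript FPKM with confidence limits for experiment 1 and, for experiment 2, RPKM, TPM and read counts per gene, per the file headers. The submitters' processing notes name build dm6 and the tools Cufflinks, TopHat, SAMtools 0.1.18.0 and Bowtie2 2.0.6.0; for the tables of experiment 2 the program is not given in the sources available. Levels were FPKM in experiment 1 and RPKM in experiment 2, so experiment and quantification cannot be told apart. TPM was not tested. A coverage signal in the deposited tables of experiment 1 was not used.

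Transcripts were summed per gene and 17070 genes joined. The median ratio over 1028 genes scaled the levels, and log2(level + 1) was fitted with limma 3.58.1 (R 4.3.3; antibody plus experiment, mean-variance trend, Benjamini-Hochberg adjustment), checked on simulated data. The simulated spread was smaller than the fitted one, so that check does not show power or false calls at the spread of these data. A change of a low gene is understated on this scale. Same-numbered libraries share an experiment, per the labels, and each lysate was divided among the antibodies. Correlations of their deviations from the antibody means were 0.47, 0.51 and 0.11. Those correlations also carry the difference in quantification between the experiments. Intron counts have 1 library per antibody and were described with exact (Clopper-Pearson) intervals. Coordinates count from 1.

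The 2 genes and the 3 lists were chosen with earlier results of these data known. Besides members, nested genes and lists, the text names the 5 genes with most Lsd1 intron reads and the 5 with the highest ratio over IgG. Alternatives covered unique reads, pseudocount, filter, scaling, block, spread and left-out libraries.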

Additional observations from a re-analysis of the deposited data

How the results depend on the processing

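On unique reads the intron share with IgG, Lsd1 and Bre1 was 21.7%, 99.2% and 3.49% for udd and 17.1%, 0.323% and 2.76% for brat, and the share of a library's intron reads was 0.00597%, 0.907% and 0.00236% for udd and 0.247%, 0.00744% and 0.0738% for brat. With IgG, brat moved to 45.7% without exon-exon reads and to 0.900% of the intron reads of protein-coding genes. The following settings were added after seeing the data. The log2 intron ratio over IgG became, on unique reads, 4.52 (udd, Lsd1), -3.46 (udd, Bre1), -7.78 (brat, Lsd1, from 2.46) and -3.86 (brat, Bre1), and over all gene reads 5.03, -5.81, 0.52 and -4.59. On reads that are not unique the brat Lsd1 ratio was 2.89. With unique exon reads in experiment 2 the udd level with Lsd1 reversed from 1.78 to -0.20, and 0 genes passed for either antibody.

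The Bre1 change stayed below 0 and short of the threshold for both genes in all 17 settings run, at -2.38 to -0.42 for udd (limma's lowest adjusted p 0.0882) and -1.90 to -0.30 for brat (0.360). Leaving out 1 library moved it from -2.05 to -0.42 for udd and from -1.52 to -0.30 for brat. Scaling moved the median of all genes with Bre1 from -0.33 to -1.07 as deposited and to 0.033 with quantile normalization, where udd stood at -1.79 and -0.75. With Lsd1, leave-one-out values were 0.52 to 3.04 for udd and -1.64 to 0.43 for brat. The brat value reversed from -0.61 to 0.0021 without the IgG library of experiment 2 and to 0.43 without the Lsd1 library of experiment 2. Where an antibody was left with 1 library, that library was assumed to vary like the others.

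The number of genes passing limma's threshold was 2 for each antibody. With Bre1 it was 1 with a pseudocount of 5 and 5 with a filter of at least 5. With Lsd1 it was 15 with a pseudocount of 5. It was 0 for both with a pseudocount of 0.1, no filter, values as deposited, quantile normalization, upper quartile scaling, no trend, and no replicate block, which ignores the pairing by lysate. Leaving out 1 library gave 0 to 44 genes with Bre1 and 0 to 1805 with Lsd1; the highest counts came without the Bre1 library of experiment 2 and without the Lsd1 library of experiment 1. The causes were not tested. Counts of 1 to 3 unique reads with Lsd1 or Bre1 limit the unique ratios.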
